A study of Mus musculus with 36 samples.

Results

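Open chromatin was examined around 7 genes known as markers of hematopoietic stem cell (HSC) ageing, namely Selp, Vwf, Clu, Aldh1a1, Nupr1, Alcam and Neo1. Peaks of all 36 ATAC-seq libraries were merged into 105005 regions, and a region was assigned to one of these genes when its centre lay closest to a transcription start site (TSS) of that gene among all protein-coding TSSs. This gave 61 regions, of which 55 were distal, meaning that their centre lay outside the window from 1000 bp upstream to 100 bp downstream of every protein-coding TSS. Region names give the distance of the centre from the closest TSS of the gene. Vwf, Aldh1a1 and Alcam have several TSSs, so the distances within each of these genes do not share 1 origin. The whole catalogue held 92133 distal regions. ATAC-seq marks open chromatin through a transposase that inserts sequencing adaptors where DNA is not wrapped in nucleosomes.

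The libraries came from bone marrow of unperturbed C57BL/6 mice that were young (10 weeks) or aged (20 months). HSCs were sorted as Lin- Sca-1+ c-kit+ cells that carried CD150 and lacked CD34, CD48 and Flt3. The multipotent progenitors (MPPs) of the same Lin- Sca-1+ c-kit+ gate all carried CD34, and were divided into MPP1 (CD150+ CD48-), MPP2 (CD150+ CD48+), MPP3 (CD150- CD48+) and MPP4 (CD150- CD48+ Flt3+). Granulocyte-macrophage progenitors (GMPs) were Lin- Sca-1- c-kit+ cells with FcgR and CD34, megakaryocyte-erythrocyte progenitors (MEPs) were such cells without either, and common lymphoid progenitors (CLPs) were labelled as IL-7+ cells, the stain being for the IL-7 receptor, with low Sca-1 and low c-kit. HSCs had 4 libraries per age and each of the other 7 fractions had 2 per age. The study calls the HSC libraries biological replicates, and it also describes the marrow of an age as pooled and then sorted, so p-values measure the spread between libraries, which may be partly technical.

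These genes are known for higher expression in aged than in young HSCs. Selp encodes P-selectin and Vwf encodes von Willebrand factor, both of which act in platelet adhesion, and Vwf also marks HSCs biased towards platelets. Clu encodes clusterin, a secreted chaperone, Aldh1a1 encodes a retinaldehyde dehydrogenase that makes retinoic acid, and Nupr1 encodes a stress-induced nuclear protein. Alcam (CD166) and Neo1 (neogenin, a receptor for netrins and repulsive guidance molecules) are cell surface proteins of the immunoglobulin superfamily. Distal accessible regions often hold enhancers, which can be open before the gene they serve is strongly expressed. The nearest gene need not be the gene that a region acts on. The question addressed was whether the distal regions of these genes differ in accessibility between young and aged cells.

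The distal regions of the ageing marker genes that were called unequally in young and aged HSCs fell to both sides. Of the 55 distal regions, 29 were called in at least 1 HSC library (44.4% of all distal regions were), and 9 of these were called in all 8 (25.8% of all called in HSCs were). No distal region was called in all 4 aged and no young HSC library (over all distal regions called in HSCs, 0.511% were), and none in all 4 young and no aged library (0.278%). More aged than young HSC libraries called 9 of the 29, more young than aged called 8, and 12 were called equally often. Over all 40934 distal regions called in HSCs, these shares were 28.7%, 34.1% and 37.2%, a comparison given as a description with no test.

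**Figure D1:**
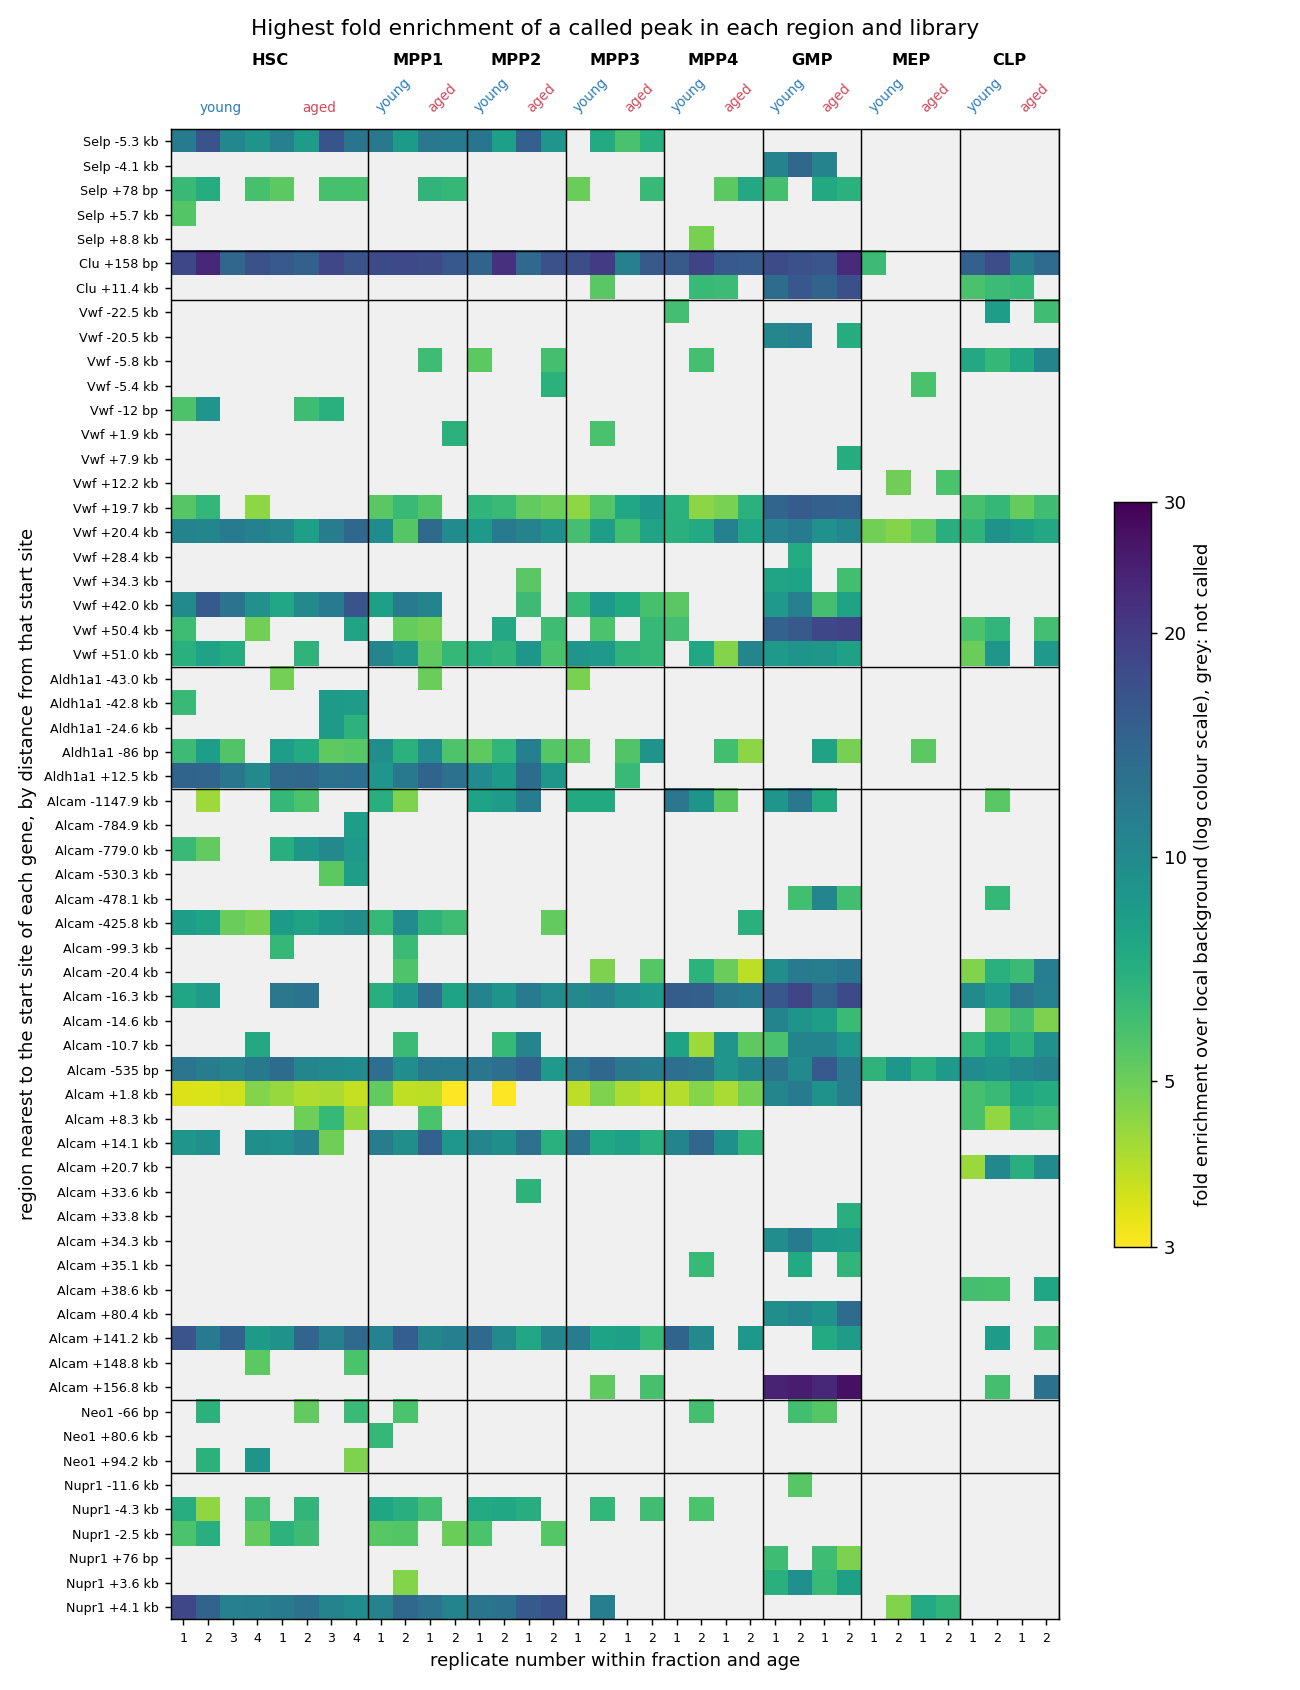
Each row is 1 of the 61 regions, named by gene and distance from the closest TSS of that gene. Each column is 1 library, ordered by fraction, age and replicate number. Colour gives the highest fold enrichment on a log colour scale and grey means that no peak was called. Selp -5.3 kb, Aldh1a1 +12.5 kb and Nupr1 +4.1 kb show values throughout HSCs, MPP1 and MPP2 of both ages, whereas Alcam +156.8 kb was high in GMPs.

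Sequences of 201 bases centred on the median summit are shown for the regions on which the results turn, read from the GRCm38 reference (mm10), plus strand, 5′ to 3′. Capitals mark matches on either strand to 10 short motifs that were chosen with earlier results known: AGATAA for GATA factors, TGTGGT for RUNX, AGGAAG for the ETS family, TTCNNNGAA for STAT, TGACGTCA for ATF and CRE binding factors, TGANTCA for AP-1, TGACAG for MEIS, TTGCNNAA for C/EBP, GAAANNGAA for IRF and CAGCTG for E-box binding factors. Some of these overlap each other, so that 1 stretch of capitals can hold more than 1 match. A match is a description of letters and not evidence of binding. First come 4 regions with a peak in each of the 8 HSC libraries but in no GMP or CLP library, upstream of Selp, in an intron of Aldh1a1, far upstream of Alcam and downstream of Nupr1.
Selp -5.3 kb, chr1:164109871-164110071: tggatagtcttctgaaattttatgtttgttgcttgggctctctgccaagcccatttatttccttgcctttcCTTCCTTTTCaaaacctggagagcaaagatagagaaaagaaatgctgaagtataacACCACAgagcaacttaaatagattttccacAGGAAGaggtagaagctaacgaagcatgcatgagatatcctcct
Aldh1a1 +12.5 kb, chr19:20614373-20614573: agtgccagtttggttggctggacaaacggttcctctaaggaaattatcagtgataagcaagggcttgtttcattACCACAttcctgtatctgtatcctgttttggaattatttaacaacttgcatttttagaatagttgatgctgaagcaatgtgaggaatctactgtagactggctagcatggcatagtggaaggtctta
Alcam -425.8 kb, chr16:52879707-52879907: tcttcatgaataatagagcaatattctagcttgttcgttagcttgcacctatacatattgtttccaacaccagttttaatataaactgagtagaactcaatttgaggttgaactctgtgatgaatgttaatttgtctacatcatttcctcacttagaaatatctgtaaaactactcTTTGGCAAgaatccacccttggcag
Nupr1 +4.1 kb, chr7:126621467-126621667: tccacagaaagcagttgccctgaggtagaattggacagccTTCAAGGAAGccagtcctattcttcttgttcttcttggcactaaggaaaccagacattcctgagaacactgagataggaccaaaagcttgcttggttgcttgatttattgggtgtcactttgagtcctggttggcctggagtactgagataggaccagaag
Next come a region called in 6 HSC libraries and in no other fraction (Alcam -779.0 kb), a distal region called in 3 young and no aged HSC library (Vwf +19.7 kb), and the start-site region of Aldh1a1, which was called in more aged than young libraries over all fractions.
Alcam -779.0 kb, chr16:53232979-53233179: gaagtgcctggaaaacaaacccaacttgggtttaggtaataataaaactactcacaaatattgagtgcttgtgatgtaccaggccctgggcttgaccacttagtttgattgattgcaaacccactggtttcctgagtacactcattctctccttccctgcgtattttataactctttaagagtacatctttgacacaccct
Vwf +19.7 kb, chr6:125572544-125572744: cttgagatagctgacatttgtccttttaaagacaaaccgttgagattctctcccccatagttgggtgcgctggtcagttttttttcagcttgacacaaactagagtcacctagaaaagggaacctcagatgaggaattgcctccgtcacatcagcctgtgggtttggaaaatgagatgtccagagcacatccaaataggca
Aldh1a1 -86 bp, chr19:20601841-20602041: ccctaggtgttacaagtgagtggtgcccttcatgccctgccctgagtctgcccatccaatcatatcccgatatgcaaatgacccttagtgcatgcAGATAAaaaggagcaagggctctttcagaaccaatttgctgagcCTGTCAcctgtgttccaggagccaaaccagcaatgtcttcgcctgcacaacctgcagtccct

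The Selp window held 2 ETS matches, 1 RUNX match and 1 IRF match, the Aldh1a1 +12.5 kb window held 1 RUNX match, and the Nupr1 window held a STAT and an ETS match that overlap each other. The only match in the Alcam -425.8 kb window was to the C/EBP motif. None of the 10 motifs was found at Alcam -779.0 kb or Vwf +19.7 kb. In the start-site window of Aldh1a1, the GATA match lay from 5 bases before the summit to the summit itself, and a MEIS match lay 39 to 44 bases after it. Among all 92133 distal windows of the same length, the RUNX motif was in 27.7%, the ETS motif in 47.2%, the STAT motif in 5.9%, the IRF motif in 8.7%, the C/EBP motif in 14.2%, the E-box in 15.1%, the GATA motif in 11.1% and the MEIS motif in 16.8%. The AP-1 motif was in 15 of the 55 distal windows of the ageing marker genes and in 12.3% of all, the STAT motif was in 9 of the 55, and the ATF and CRE motif was in none of the 55 and in 0.5% of all. Of the same 55 windows, the ETS motif was in 23, the RUNX motif in 12, the C/EBP motif in 10, the IRF motif in 9, the E-box in 8, the MEIS motif in 6 and the GATA motif in 4.

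Genes of platelet adhesion are described first. The most widely shared Selp region lay 5.3 kb upstream of the TSS in intergenic sequence (chr1:164109783-164110227). The next protein-coding gene, F5, which encodes coagulation factor V, starts 41.8 kb from its centre. Fold enrichment, the height of a peak over its local background, was 11.8, 16.6, 10.2 and 9.10 in young HSC replicates 1 to 4, and 11.0, 8.39, 16.5 and 12.3 in aged HSC replicates 1 to 4. The ages overlapped almost completely. The region was also called in all 4 MPP1 and all 4 MPP2 libraries and in 3 of 4 MPP3 libraries, between 5.81 and 14.8, and in no MPP4, GMP, MEP or CLP library. It was thus shared by HSCs, MPP1, MPP2 and MPP3 at both ages.

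The start-site region of Selp (chr1:164115117-164115568) was lower. It was called at 6.29, 7.20 and 5.88 in young HSC replicates 1, 2 and 4 and at 5.38, 5.88 and 5.85 in aged HSC replicates 1, 3 and 4. Outside HSCs it was called in 7 aged libraries (2 of MPP1, 1 of MPP3, 2 of MPP4 and 2 of GMP) and in 2 young libraries (1 of MPP3 and 1 of GMP). Summed over the 8 fractions, 10 of 18 aged and 5 of 18 young libraries had it (exact conditional test stratified by fraction, two-sided, p = 0.114, adjusted p = 1). The other Selp regions were called in few libraries. Selp -4.1 kb was called in 3 GMP libraries alone, Selp +5.7 kb in young HSC replicate 1 alone at 5.55, and Selp +8.8 kb in 1 young MPP4 library.

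Vwf had 15 regions, 14 of them distal, and 9 of the 14 were not called in HSCs. Intronic Vwf +20.4 kb (chr6:125573110-125573699) was the only distal region of these genes that was called in all 36 libraries. Its values were 10.6, 10.4, 11.5 and 10.9 in young HSCs and 10.3, 8.16, 11.3 and 13.9 in aged HSCs, so that the young values lay within the range of the aged. Intronic Vwf +42.0 kb (chr6:125594788-125595208) had 9.95, 15.6, 12.5 and 9.34 in young HSCs and 7.52, 10.1, 11.8 and 16.5 in aged HSCs, again with overlap. Among progenitors it appeared in 9 of 16 MPP libraries, in all 4 GMP libraries and in no MEP or CLP library.

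The region next to Vwf +20.4 kb, Vwf +19.7 kb (chr6:125572310-125573108), showed the largest lead of young HSCs among these genes. It was called at 5.52, 6.54 and 4.45 in young HSC replicates 1, 2 and 4, and in no aged HSC library (Fisher's exact test, two-sided, p = 0.143, adjusted p = 1). In GMPs the same region was called in all 4 libraries with a mean of 14.8 ± 0.942 (SD, n = 2) in young and 14.7 ± 0.233 (SD, n = 2) in aged GMPs. In MPPs it was called in 15 of 16 libraries, at both ages. Of all distal regions called in HSCs, 2.35% led in young by at least 3 libraries, and 2.27% led in aged by at least 3, against 1 of the 29 in each direction here. Vwf +51.0 kb was called in 3 young and 1 aged HSC library and Vwf +50.4 kb in 2 young and 1 aged. The region at a TSS of Vwf, Vwf -12 bp (chr6:125552724-125553149), was called in HSC libraries alone, at 5.71 and 9.06 in young replicates 1 and 2 and at 6.11 and 6.95 in aged replicates 2 and 3.

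**Figure D2:**
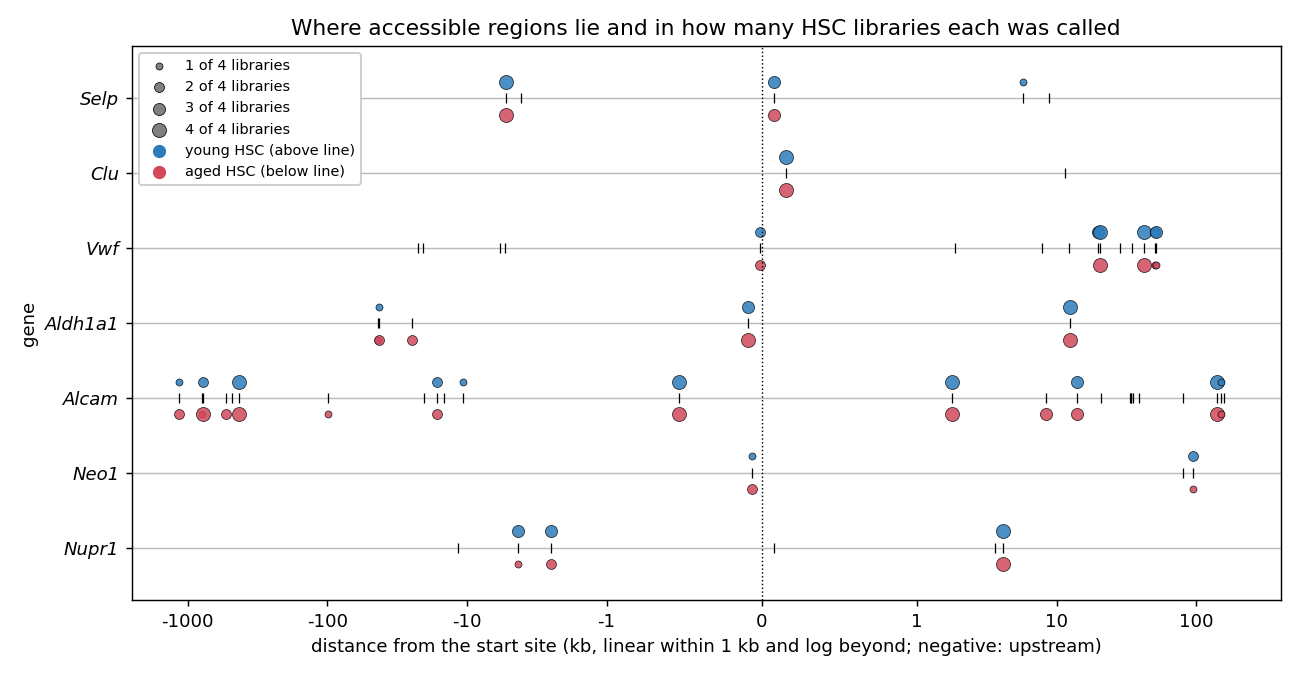
Each line is 1 gene, and ticks are its regions by distance in kb from the closest TSS of the gene (linear within 1 kb and log beyond). Where a gene has several TSSs, the order of its ticks need not be the order on the chromosome. Circles give the number of young (above) and aged (below) HSC libraries, of 4 each, that called the region. Regions called in at least 2 HSC libraries of 1 age and in none of the other are Vwf +19.7 kb, Aldh1a1 -24.6 kb, Alcam -530.3 kb and Alcam +8.3 kb.

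Clu had 2 regions. The one at its start (chr14:65968366-65968917) is centred 158 bp downstream of the TSS in the untranslated first exon, just outside the promoter window, so it counts as distal by the rule although it covers the start site. Among the regions of these genes called in all HSC libraries, it had the highest mean at each age, though not the highest value in every library. Its values were 18.2, 22.9, 14.05 and 16.9 in young and 15.7, 14.6, 18.4 and 16.6 in aged HSCs. All aged values fell within the young range. It was called in every MPP, GMP and CLP library and in 1 of 4 MEP libraries. Clu +11.4 kb, over a coding exon, was called in no HSC library and in all 4 GMP libraries, at 14.7 ± 1.98 (SD, n = 2) in young and 15.8 ± 1.84 (SD, n = 2) in aged GMPs.

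The metabolic and stress genes follow. Aldh1a1 had a region called in all HSC libraries in an intron 12.5 kb downstream of the TSS (chr19:20614174-20614772). Values were 14.3, 14.1, 12.2 and 9.97 in young HSCs and 13.5, 13.8, 12.8 and 12.9 in aged HSCs, and all aged values lay inside the young range. Beyond HSCs it was seen in all MPP1 and MPP2 libraries and in 1 aged MPP3 library, and in no MPP4, GMP, MEP or CLP library. The related gene Aldh1a7 starts 113.1 kb away.

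The other 3 distal Aldh1a1 regions were each called in more aged than young HSC libraries, as were 28.7% of all distal regions called in HSCs. Aldh1a1 -24.6 kb (chr19:20468049-20468258) was called in aged HSC replicates 3 and 4 alone, at 8.56 and 6.78. Aldh1a1 -42.8 kb (chr19:20558779-20559475), which lies in an intron of the longer transcript, was called at 8.56 and 8.39 in those same libraries and at 6.29 in young HSC replicate 1. Aldh1a1 -43.0 kb (chr19:20449569-20449823) was called in aged HSC replicate 1 at 4.84 and in 1 aged MPP1 and 1 young MPP3 library. Aldh1a1 -43.0 kb and Aldh1a1 -24.6 kb are measured from the upstream TSS (chr19:20492715). Aldh1a1 -42.8 kb is measured from the other TSS (chr19:20601961), so it does not lie next to Aldh1a1 -43.0 kb. With 2 against 0 libraries or less, none of these differences could pass Fisher's exact test, in which even 4 against 0 gives p = 0.0286.

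The start-site region of Aldh1a1 (Aldh1a1 -86 bp, chr19:20601546-20602204) had the smallest p between ages over all fractions. It was called in 15 of 18 aged libraries and 8 of 18 young libraries. In HSCs it was called at 6.18, 8.27 and 5.63 in young replicates 1 to 3 and at 8.28, 7.32, 5.33 and 5.48 in aged replicates 1 to 4, with overlapping heights. HSCs and MPP3 each added 1 library to the aged excess, and the other 5 came from fractions in which both aged MPP4 libraries (6.04 and 4.47), both aged GMP libraries (7.95 and 4.81) and 1 aged MEP library (5.37) called it and no young library did. The exact conditional test stratified by fraction gave p = 0.00694 and, adjusted over the 85292 regions tested, p = 1. Over all regions 1.37% had an unadjusted p under 0.05 in this test and 0% an adjusted one.

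Nupr1 had its main region 4.1 kb downstream of the TSS in intergenic sequence (chr7:126621307-126621837), with Il27, a cytokine gene, as the next protein-coding gene. Its values were 18.4, 14.3, 11.0 and 11.2 in young HSCs and 11.7, 12.7, 10.7 and 9.80 in aged HSCs, so that the ages overlapped with the highest values in young. It was called in all MPP1 and MPP2 libraries, in 1 young MPP3 library and in 3 MEP libraries at 4.65 to 7.32, and in no MPP4, GMP or CLP library. Nupr1 -4.3 kb was called in 3 young HSC libraries (7.12, 4.41 and 5.96) and 1 aged (6.57), and, summed over fractions, in 9 young and 4 aged ones (stratified exact test, p = 0.112, adjusted p = 1). Nupr1 -2.5 kb was called in 3 young and 2 aged HSC libraries. The start-site region of Nupr1 was called in 3 GMP libraries alone.

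Alcam stands in a gene-poor stretch and had 25 regions, 24 of them distal. Its promoter region (Alcam -535 bp) was called in all 36 libraries. Alcam +1.8 kb was called in all 8 HSC libraries at low height, between 3.40 and 4.60. Alcam +141.2 kb (chr16:52311016-52311553), deep in the gene body, was called in all 8 HSC libraries between 8.55 and 16.3 in young and between 9.24 and 14.2 in aged HSCs, in 15 of 16 MPP libraries and in 4 GMP and CLP libraries.

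The region 425.8 kb upstream of Alcam (chr16:52879588-52880103) had the largest age difference in HSC fold enrichment among the regions of these genes called in all 8 HSC libraries. Values were 8.26, 7.88, 5.07 and 4.77 in young HSC replicates 1 to 4 and 8.53, 7.99, 8.85 and 9.59 in aged HSC replicates 1 to 4. As deposited, the lowest aged value lay just below the highest young one, and after centring each library on its median the ages did not overlap (4.72% of the 17340 regions called in all 8 HSC libraries had no overlap). The log2 difference was 0.49 (SE 0.18) between 4 libraries per age, with an adjusted p of 0.419 in limma and an unadjusted one of 0.0150. The difference rests on young replicates 3 and 4: with replicates 1 and 2 alone it was 0.17, and with replicates 3 and 4 alone it was 0.81. The region was called in all 4 MPP1 libraries and in 1 aged MPP2 and 1 aged MPP4 library, and in no GMP, MEP or CLP library. In MPP1 the mean was higher in young, at 8.14 (6.44 to 9.84) against 6.42 (6.14 to 6.69) in aged, with overlapping values.

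Regions called in fewer HSC libraries did not enter the test. Of these, Alcam -16.3 kb, named after its values were seen, was called in replicates 1 and 2 of each age, at 7.70 and 8.38 in young and at 11.99 and 12.51 in aged HSCs, which do not overlap, as in 36.5% of the 1279 distal regions called in 2 HSC libraries of each age. In Alcam +14.1 kb, Nupr1 -2.5 kb and Vwf -12 bp, also called in part of the HSC libraries of each age, the ages overlapped. Some distal regions were called in both ages but in only 1 HSC library of an age. They were Nupr1 -4.3 kb, Vwf +51.0 kb, Neo1 +94.2 kb, Vwf +50.4 kb, Aldh1a1 -42.8 kb, Alcam -1147.9 kb and Alcam +148.8 kb. A single value overlaps the other age only when it falls within the range of that age. At Alcam +148.8 kb, with 1 library of each age, overlap could not occur. The order of the ages at these regions is therefore not read as a difference. Further upstream, Alcam -779.0 kb (chr16:53232862-53233224) was called in HSC libraries alone. Peaks were found in 2 young HSC libraries, replicates 1 and 2, at 6.29 and 5.24, and in all 4 aged HSC libraries, at 6.99, 8.86, 10.2 and 8.61, so every aged value lay above both young values. The ages did not overlap, in either direction, in 19.7% of the 656 distal regions called in 2 young and 4 aged HSC libraries. Nearby, Alcam -530.3 kb was called in aged HSC replicates 3 and 4 alone, at 5.35 and 8.34, and Alcam -784.9 kb in aged HSC replicate 4 alone, at 8.34. Intronic Alcam +8.3 kb was called in 3 aged HSC libraries (replicates 2 to 4, at 5.01, 6.42 and 4.32) and in no young one (Fisher's exact test, two-sided, p = 0.143, adjusted p = 1). It was also called in 1 aged MPP1 library and in all 4 CLP libraries, at 4.35 to 6.51.

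A region much farther out went the other way. Alcam -1147.9 kb (chr16:53601727-53602139) had a peak in 12 young but 5 aged libraries, counted across the fractions, with both young libraries of MPP1, MPP2, MPP3, MPP4 and GMP among them (exact conditional test stratified by fraction, p = 0.0380, adjusted p = 1). In HSCs it was called at 4.19 in young replicate 2 and at 6.45 and 5.73 in aged replicates 1 and 2. It lies 1552 kb from the next protein-coding gene, Cblb, which encodes a ubiquitin ligase.

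Neo1 had 3 regions. Its start-site region was called in young HSC replicate 2 at 6.81 and in aged HSC replicates 2 and 4 at 5.21 and 6.26, and in 4 libraries of MPPs and GMPs. Neo1 +94.2 kb, intronic, was called in HSC libraries alone, at 6.81 and 9.09 in young replicates 2 and 4 and at 4.69 in aged replicate 4. Neo1 +80.6 kb was called in 1 young MPP1 library.

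Fold enrichment was then tested between ages with limma on log2 values centred on each library's median, over the regions called in every library of a fit. In HSCs, 17340 regions entered, 9 of them distal regions of these genes. None of the 9 passed an adjusted p of 0.05 (8 of all regions did, 0.0461%), and 1 of the 9, Alcam -425.8 kb, had an unadjusted p under 0.05 (9.24% of all regions had). The median log2 difference over the 9 was -0.00, from -0.26 to 0.49, with 4 above and 5 below 0, against a median of 0.00 over all regions. The 95% intervals were -0.36 to 0.41 at Selp -5.3 kb, -0.37 to 0.15 at Clu +158 bp, -0.37 to 0.37 at Vwf +20.4 kb, -0.48 to 0.37 at Vwf +42.0 kb, -0.19 to 0.39 at Aldh1a1 +12.5 kb and -0.59 to 0.08 at Nupr1 +4.1 kb. They exclude a doubling at each of these 6 regions on this scale. A region had to be called in all 8 libraries to enter, so the regions that differed most in calls are not among the 9.

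**Figure D3:**
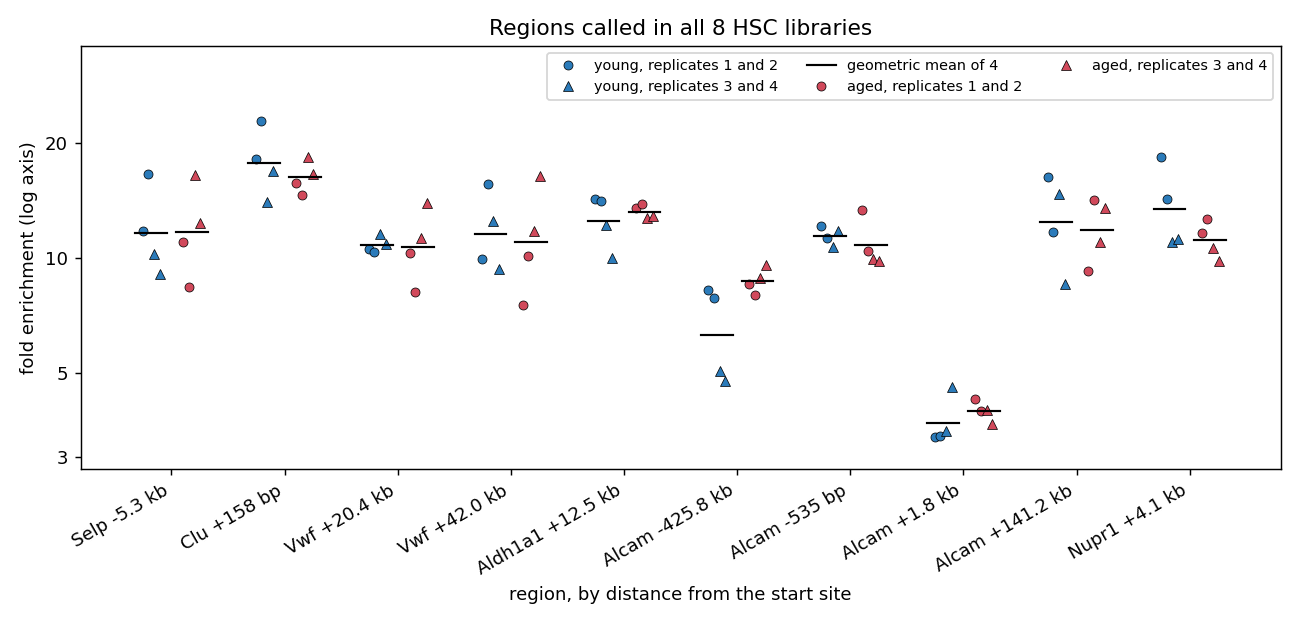
Fold enrichment (log axis) of the 10 regions called in all 8 HSC libraries, with young in blue, aged in red, circles for replicates 1 and 2, triangles for replicates 3 and 4 and bars for geometric means of 4 libraries. The ages overlap in every region as deposited, and at Alcam -425.8 kb the young values of 5.07 and 4.77 (replicates 3 and 4) lie apart from the other 6.

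**Figure D4:**
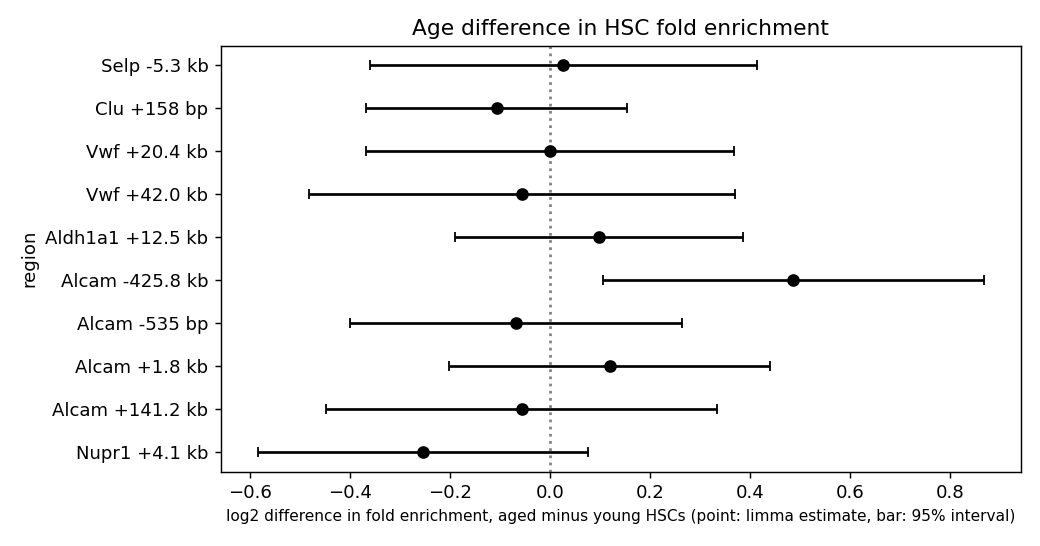
Log2 difference in fold enrichment, aged minus young HSCs, as limma estimates with 95% intervals for the 10 regions called in all 8 HSC libraries. The intervals are not adjusted for multiple tests. They hold 0 in all of the regions but Alcam -425.8 kb, whose difference was 0.49 (limma, unadjusted p = 0.0150, adjusted p = 0.419).

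The same test in the progenitors called none of the distal regions of these genes. In MPPs, 4 entered and 0% of all regions passed, with Vwf +20.4 kb at an unadjusted p under 0.05 (log2 difference 0.30, SE 0.14, unadjusted 0.0370 and adjusted 0.563 in limma, where 8.46% of all regions had an unadjusted p under 0.05). In GMPs 16 entered (0.00227% of all passed), with Vwf +42.0 kb lowest in p (log2 difference -0.56, SE 0.27, unadjusted 0.0468 and adjusted 0.766 in limma). In CLPs 10 entered (0% of all passed), with Clu +158 bp lowest in p (log2 difference -0.38, SE 0.18, unadjusted 0.0386 and adjusted 0.680 in limma). In MEPs 1 entered (0% of all passed). The age difference of HSCs was compared with that of MPPs in 2 distal regions, Clu +158 bp and Vwf +20.4 kb, with adjusted p of 0.960 and 0.840 in limma, and 0% of all regions passed. Over all fractions, the stratified exact test called 0 of the 51 distal regions in which an outcome could vary, 1 of them at an unadjusted p under 0.05.

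Calls were also compared between fractions, with both ages pooled, a comparison that was added after the data were seen. Of the distal regions of these genes, 50 could be compared between the 8 HSC libraries and the 12 libraries of GMPs, MEPs and CLPs, whichever of them called the region. More calls in HSCs were found at 9 (Fisher's exact test, two-sided, adjusted over all regions), where 6.77% of all distal regions compared had them, and fewer at 1, Alcam -20.4 kb (0 of 8 against 8 of 12), where 3.04% of all had them. Those higher in HSCs were Selp -5.3 kb, Aldh1a1 +12.5 kb and Alcam -425.8 kb (8 of 8 against 0 of 12, adjusted p = 0.000598 by Fisher's exact test), Nupr1 +4.1 kb (8 of 8 against 3 of 12), Alcam -779.0 kb and Alcam +14.1 kb (6 of 8 against 0 of 12), Nupr1 -2.5 kb (5 of 8 against 0 of 12), and Vwf +42.0 kb and Alcam +141.2 kb (8 of 8 against 4 of 12). Without MEPs, whose libraries held the fewest peaks, 4 of the 46 regions compared were higher in HSCs, against 2.99% of all distal regions: Selp -5.3 kb, Aldh1a1 +12.5 kb, Alcam -425.8 kb and Nupr1 +4.1 kb (8 of 8 against 0 of 8, adjusted p = 0.00335 by Fisher's exact test). Another 4 of the 46 were then lower in HSCs, against 5.29% of all, namely Clu +11.4 kb, Alcam -20.4 kb, Alcam -14.6 kb and Alcam -10.7 kb. Against the 16 MPP libraries, 1 of 40 regions was higher in HSCs (0.305% of all) and none was lower (1.01% of all). It was Alcam -779.0 kb (6 of 8 against 0 of 16, adjusted p = 0.0184 by Fisher's exact test).

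Other regions of the same genes were highest in committed progenitors. These heights are as deposited and were not scaled between fractions. The median fold enrichment of a library over all its summits was 9.62 to 10.1 in GMPs and 7.65 to 7.99 in HSCs. Alcam +156.8 kb, over a coding exon, was called in all 4 GMP libraries at 23.99 and 25.12 in young and 22.97 and 27.03 in aged GMPs, the highest values of these genes, in 2 MPP3 and 2 CLP libraries, and in no HSC library. Vwf +50.4 kb reached 15.1 ± 0.701 (SD, n = 2) in young and 18.5 ± 0.292 (SD, n = 2) in aged GMPs (limma log2 difference 0.26, adjusted p = 0.900), and was also called in 3 of 8 HSC and 7 of 16 MPP libraries. Alcam +34.3 kb and Alcam +80.4 kb were called in all 4 GMP libraries and nowhere else, and Alcam +20.7 kb in all 4 CLP libraries and nowhere else. In all, 26 of the 55 distal regions were called in no HSC library, against 55.6% of all distal regions.

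Lists of related genes were described in the same way. Among 25 other genes reported as raised in aged HSCs, 118 distal regions were called in HSCs, 53 in more aged libraries, 28 in more young libraries and 37 equally (over all distal regions called in HSCs, 28.7%, 34.1% and 37.2%). None of the 24 regions tested in HSCs by limma passed (6 had an unadjusted p under 0.05, as did 9.24% of all regions), and 1, at Gda -5.1 kb (chr19:21478361-21478687), was called in all 4 aged and no young HSC library, at 4.84 to 8.56 (0.511% of all were so called). Gda encodes guanine deaminase. Of the platelet and megakaryocyte genes, 13 of 14 had a region, and 22 distal regions were called in HSCs, 2 in more aged, 9 in more young and 11 in equal numbers of libraries, with none of 8 passing limma (1 at an unadjusted p under 0.05). The retinoid genes had 56 such regions, 13 in more aged, 22 in more young and 21 in equal numbers of libraries, with none of 19 passing limma (2 at an unadjusted p under 0.05). Both of their regions called in all 4 young and no aged HSC library were nearest to Rara, the retinoic acid receptor alpha gene, at Rara -9.4 kb (chr11:98918188-98918726) and Rara +3.4 kb (chr11:98963539-98964001), a pattern held by 0.278% of all. The shares over all distal regions given for the first list are the background for these counts too, and with equal numbers of peaks per HSC library they turn to 32.04% in more aged and 30.69% in more young libraries. In HSC fold enrichment, the median log2 difference over the regions tested was -0.09 in the first list, which is lower in aged. It was 0.007 for the platelet and megakaryocyte genes and -0.131 for the retinoid genes, against 0.005 over all regions. The lists were chosen with earlier results of these data known and give no independent support.

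The libraries held 9581 to 63288 peaks, fewest in MEPs and most in GMPs. In HSCs, young replicates 1 and 2 held 35186 and 38756 peaks, young replicates 3 and 4 held 27856 and 29022, and the 4 aged libraries held 31081 to 32185. Replicates 1 and 2 alone gave 1 region called in both young and no aged library, Vwf +19.7 kb, and none the other way, where 6.45% and 2.07% of all distal regions called there did so. Replicates 3 and 4 alone gave 5 called in both aged and no young library (Aldh1a1 -42.8 kb, Aldh1a1 -24.6 kb, Alcam -779.0 kb, Alcam -530.3 kb and Alcam +8.3 kb) and none the other way, where 8.41% and 3.38% of all did so. With the same number of peaks kept in each HSC library, Alcam -779.0 kb alone was called in all 4 aged and no young library (0.671% of all). Young HSC replicate 3, with the fewest peaks, called 10 distal regions of these genes and the other 7 HSC libraries 15 to 19, with 17 in young replicate 4 and 15 in aged replicate 3. Whether the number of peaks sets these differences was not tested.

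The regions nearest to the start sites of marker genes were checked against the sort, though some of them did not lie at the start site. Hlf and Meis1, transcription factors of HSCs, were called at the TSS in all 8 HSC libraries but also in all MPP and GMP libraries, Procr in 4 young and 0 aged (centred 231 bp downstream), and Mecom in none. Mpo and Elane, enzymes of neutrophil granules, were called at the TSS in all 4 GMP libraries and in no HSC library. Il7r was called in all 4 CLP libraries and in no HSC library, but also in all MPP4 and GMP libraries. Other markers did not separate the fractions. Regions nearest to the starts of Klf1 and Epor (erythroid) and Dntt and Ebf1 (lymphoid) were called in all 8 HSC libraries. Their centres lay 1392 bp downstream of the start at Klf1, 871 bp at Epor and 1876 bp at Dntt. Those of Klf1 and Gata1 (centre at -3636 bp) were called in 1 of 4 MEP libraries each. Csf3r, a granulocyte receptor gene, was called in 2 HSC libraries. Selp and Vwf are also made by megakaryocytes and endothelial cells. Of the megakaryocyte markers, Pf4 was called in all 8 HSC libraries, Gp9 and Itga2b in 4 young and 3 aged, and Gp1bb in 1 aged. Of the endothelial markers, Kdr was called in all 8 HSC libraries, Emcn in 3 young and 1 aged, and Cdh5 (centred 2049 bp downstream) in 2 young and 1 aged. Egfl7 was called in 1 of each age and Tie1 in 1 young. In bulk libraries, fewer open cells and less open chromatin per cell cannot be told apart, and the part of such cells in the results was not tested.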

How the data were processed

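ATAC-seq of 20000 sorted cells per library was performed by the authors, with single reads of 60 bp and fragments selected between 240 and 360 bp. Per the labels and the study's methods, Bowtie2 aligned the reads to mm10, and they were processed with SAMtools, subsampled to the same number per library, and peaks were called in each library with MACS2 (2.2.6). Every summit in the deposited peak lists comes with fold enrichment over local background (a ratio), -log10 p and q-values and a score. The -log10 q-value was at least 3 in every library. Since they contain no read counts, the study's count model was not run, and fold enrichment limits precision by its spread between libraries alone. The score deposited was not used.

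Peaks overlapping by at least 1 bp were merged, and the highest fold enrichment was taken per region and library. TSSs came from GENCODE mouse release 21 (basic set). Peak ends lay within the chromosomes of the GRCm38 reference, the assembly of mm10, from which sequences were read. Coordinates are counted from 1. The sequence of 1 region and 1 marker gene are not reported here.

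Ages were compared in HSCs by Fisher's exact test, over all fractions by an exact conditional test with fraction as stratum, and in fold enrichment by limma 3.58.1 (R 4.3.3, moderated with a mean trend), each with Benjamini-Hochberg adjustment over all regions, two-sided, at 0.05. With 4 HSC libraries per age, Fisher's exact test between ages could not pass this adjustment, so its adjusted p-values decide nothing. The fits assumed values comparable after centring on the library median. The stratified exact test and limma were checked on simulated data, in which limma found on average 81.6% of 200 regions changed 2-fold (76.5% to 86.5% over 10 simulations) and 12.8% of 200 changed 1.5-fold (4% to 19.5%) among the 17340 regions of the HSC comparison.

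Regions given in full were, for each gene, the one at a TSS, the distal one with the largest young against aged difference in HSC calls, the one with the smallest p over all fractions and the one called in most libraries, together with regions whose centred HSC values did not overlap between ages. Other regions named were chosen after their values were seen. The members and lists were chosen with earlier results of these data known. Alternatives were a stricter q-value, coverage of 50% of a region, distal at 2500 bp, equal numbers of peaks, other scalings, replicate sets, a replicate block and leaving out each library. Same-numbered HSC libraries deviated together with r from -0.08 to 0.18, so the numbers were not taken to pair the libraries.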

Additional observations from a re-analysis of the deposited data

Results flagged for a closer look

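In 24 HSC groups that were checked for a single library far from the others, 2 stood out. None of 37 pairs of HSCs with another fraction was flagged. How many groups chance alone would flag was not tested. At the Alcam promoter (Alcam -535 bp), aged HSC replicate 1 had a fold enrichment of 13.3, above the other 3 aged libraries at 9.82 to 10.4. At Alcam +1.8 kb, young HSC replicate 4 had 4.60, above the other 3 young libraries at 3.40 to 3.52.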

How the results depend on the processing

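No distal region of the ageing marker genes passed limma in any of the fits and alternatives run (0 in each of 104), nor the test over all fractions in any alternative, with the replicate block included (0 of 47 regions). Distal regions with a peak in every HSC library of 1 age but in none of the opposite age numbered 0 with all libraries, 1 with equal numbers of peaks, 1 with replicates 1 and 2 alone, 5 with replicates 3 and 4 alone, and 0 to 1 when 1 library was left out (Vwf +19.7 kb without young replicate 3, as for 0.979% of all, and Alcam +8.3 kb without aged replicate 1, as for 0.913%). Regions called in more aged HSC libraries numbered 9 of 29 (28.7% of all), 14 of 27 when peaks had to cover 50% of the region (33.8% of all) and 4 of 24 with replicates 1 and 2 alone (14.99% of all). Those called in more young libraries numbered 8 of 29 (34.1% of all), and 5 of 24 with replicates 3 and 4 alone (21.1% of all). With equal numbers of peaks they were 9 and 7 of 27, and over all regions the order turned, to 32.04% more aged and 30.69% more young. The 9 of 50 regions called more often in HSCs than in GMPs, MEPs and CLPs (6.77% of all) became 4 of 46 without MEPs (2.99%). These counts of direction and fraction were added after the data were seen.

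Differences in HSC fold enrichment near 0 changed sign. Selp -5.3 kb (0.03) was -0.41 with replicates 1 and 2 alone, 0.46 with replicates 3 and 4 alone and -0.12 to 0.18 when 1 library was left out. Clu +158 bp (-0.11) was -0.29 with replicates 1 and 2 alone and 0.081 with replicates 3 and 4 alone. Vwf +20.4 kb (-0.00) was 0.0038 with uncalled libraries at their lowest value, 0.061 with replicates 3 and 4 alone and -0.13 to 0.13 when 1 library was left out. Alcam -535 bp (-0.07) was 0.043 with -log10 p in place of fold enrichment, 0.15 with replicates 1 and 2 alone and -0.28 with replicates 3 and 4 alone, and Alcam +1.8 kb (0.12) was 0.41 with replicates 1 and 2 alone and -0.17 with replicates 3 and 4 alone. Aldh1a1 +12.5 kb, Alcam -425.8 kb and Nupr1 +4.1 kb kept their sign in every alternative. At Alcam -425.8 kb the value was 0.49 with the replicate block (limma adjusted p = 0.367) and 0.39 to 0.59 when 1 library was left out, with adjusted p from 0.172 to 0.924 over its 14 alternatives. The cause of these changes was not tested. With 4 libraries per age and no read counts, differences under about 1.5-fold were mostly out of reach.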
